A study of Rattus norvegicus with 2 samples.

Results

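Creb1 and 8 activity-induced early genes (Fos, Jun, Junb, Egr1, Arc, Nr4a1, Dusp1 and Bdnf) were examined in RNA-seq of rat cortical neurons. They were chosen by gene identity, as genes relevant to the cAMP pathway that the study followed up. All 9 identifiers were among the 16756 genes of the deposited tables. The cells were primary cortical neurons of Sprague Dawley rats at E18 (embryonic day 18), treated for 36 h either with the NC siRNA, the negative control, or with the CDH12 siRNA, directed against the type II cadherin CDH12. There was 1 library for each treatment, so no difference given here has a replicate check, and an effect of the siRNA cannot be told apart from a difference between cultures or between library preparations. Both cultures started in medium with serum before serum-free Neurobasal medium, and the siRNA was delivered by electroporation. Gene symbols were paired with identifiers for these 9 genes only. The level of CDH12 itself, the markers of neurons and of other cell types, and other genes of the cAMP/PKA pathway were therefore not analyzed here.

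When cAMP is raised in a neuron, protein kinase A (PKA) phosphorylates CREB, the protein encoded by Creb1, which then recruits coactivators at cAMP response elements (CREs) in the promoters of its target genes. Calcium and MAP kinase signals converge on the same protein and on serum response factor, which binds the CArG box of many early promoters. The early genes are transcribed within minutes of a stimulus without new protein synthesis, and their mRNAs are short-lived. RNA-seq measures the Creb1 transcript and not the phosphorylation of its protein.

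Of the 9 genes, Egr1 was 1.36-fold and Jun 1.13-fold higher in the CDH12 siRNA library, and Bdnf, with 36 reads in all, was 2.67-fold lower. With reads taken as independent, the difference exceeded counting error for these 3 genes, as it did for 22.6% of 13317 genes. It lay within counting error for Creb1, Fos, Junb, Arc, Nr4a1 and Dusp1. In bulk RNA, fewer cells expressing a gene and less of its RNA per cell cannot be told apart.

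The upstream sequences are shown before the values because the CRE is the element at which CREB acts on its target genes. Whether CREB acts on the genes examined here was not tested. The set of upstream sequences used here, for the GRCr8 build, held 6 of the 9 genes, with 12 annotated transcription starts. These were Creb1, Junb, Egr1, Nr4a1, Dusp1 and Bdnf. Fos, Jun and Arc are in RefSeq by symbol but had no entry in that set, so they were not searched. The build behind the deposited counts is not given in the sources used here, so the positions below belong to GRCr8 alone. The 250 bases before each start were searched on both strands for the full CRE (TGACGTCA), for its core (TGACG, or CGTCA when read on the other strand, both of which lie inside the full CRE) and for the CArG box. Of all 33469 upstream windows of the same length in 27457 genes, 1.59% held the full CRE, 18.2% held the core and 1.5% held a CArG box.

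Dusp1 and Egr1 are printed because they carried the full CRE and the CArG boxes, and Junb because it carried the core alone. For each, the whole 250 bases on the + strand are given 5′ to 3′ with the matches in capitals. They lie at chr10:17184603-17184852 (Dusp1), chr18:26736828-26737077 (Egr1) and chr19:40080876-40081125 (Junb), each ending at the base before the start.
Dusp1: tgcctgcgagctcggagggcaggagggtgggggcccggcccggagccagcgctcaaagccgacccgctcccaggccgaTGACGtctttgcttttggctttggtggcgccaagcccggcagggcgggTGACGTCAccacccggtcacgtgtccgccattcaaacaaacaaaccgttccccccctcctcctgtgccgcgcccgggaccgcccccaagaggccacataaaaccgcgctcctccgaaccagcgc
Egr1: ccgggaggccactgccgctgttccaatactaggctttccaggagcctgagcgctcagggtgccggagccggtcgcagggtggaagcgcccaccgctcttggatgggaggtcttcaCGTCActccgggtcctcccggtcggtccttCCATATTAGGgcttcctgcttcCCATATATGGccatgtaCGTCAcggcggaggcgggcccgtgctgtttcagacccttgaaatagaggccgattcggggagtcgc
Junb: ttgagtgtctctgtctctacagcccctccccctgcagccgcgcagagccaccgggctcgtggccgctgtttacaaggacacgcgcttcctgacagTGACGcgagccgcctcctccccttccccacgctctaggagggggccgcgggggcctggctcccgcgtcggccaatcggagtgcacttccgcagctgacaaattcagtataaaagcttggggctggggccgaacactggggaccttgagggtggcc

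Dusp1 was the only one of the 6 genes with a full CRE in a window, beginning 124 bases upstream of its start, and it had another core at 172 bases. Egr1 held cores at 135 and 66 bases, with 2 CArG boxes between them at 105 and 83 bases. Junb held 1 core at 155 bases. Creb1 itself had cores at 80 and 59 bases upstream of the first of its 2 starts and none at the second.

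Nr4a1 held 4 cores, at 246, 226, 82 and 53 bases, and only 1 of the 6 Bdnf starts, the fourth in genomic order, held one, at 35 bases. These windows of Nr4a1 and Bdnf lie within the span of the gene itself, and 30 bases of each on the + strand around the core nearest to the start are printed, from chr7:134260073-134260102 and chr3:116637810-116637839, with the core in capitals.
Nr4a1: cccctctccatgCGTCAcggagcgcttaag
Bdnf: atatgacagctcaCGTCAaggcagcgtgga

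**Figure D1:**
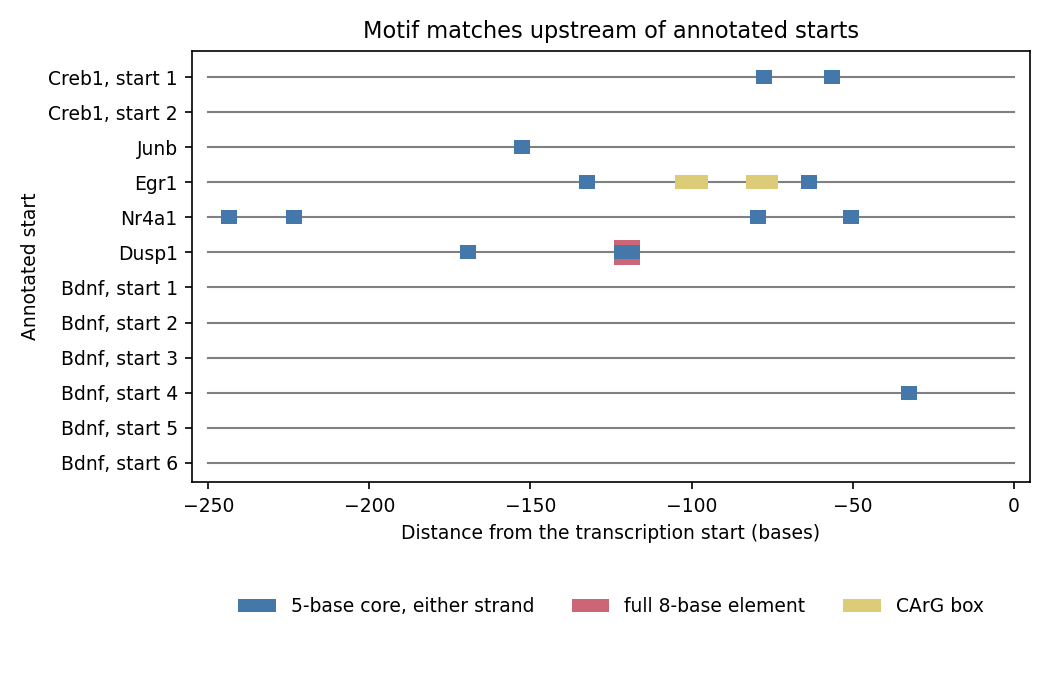
Each line is the 250 bases upstream of 1 annotated start, with the distance from the start in bases on the horizontal axis. Blue bars mark the CRE core on either strand, the red bar the full CRE of Dusp1 and yellow bars the CArG boxes of Egr1. Nr4a1 has the most cores, 4, and 5 of the 6 Bdnf starts have none.

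The matches are letters in a sequence and not sites at which binding was measured. The transcript levels of these genes follow. The authors divided each gene's count by 1 size factor per library, and the quotients are called normalized counts. They came in whole steps of 1 read (100% within a tolerance of 0.001), from which 15500488 reads were recovered for the NC siRNA library and 13699612 for the CDH12 siRNA library. Fold changes are the CDH12 siRNA library over the NC siRNA library. Each stands with an exact (Clopper-Pearson) 95% interval that covers counting error only, since there was 1 library for each treatment. Reads without molecular identifiers are not independent molecules, so the interval can be too narrow even for counting error. The 22.6% of genes given above are those whose interval excluded a fold of 1, among the 13317 with 20 or more reads over both libraries. Over genes in general the libraries therefore differed by more than these intervals cover. For that reason the 5th to 95th percentile of the log2 fold changes of genes of like depth, with 0.5 to 2 times the reads of the gene in question, is given beside each gene whose interval excluded a fold of 1.

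Creb1 (ENSRNOG00000013412), which encodes CREB, had 433 reads under the NC siRNA against 371 under the CDH12 siRNA, corresponding to 409 and 393 normalized counts. The fold change was 0.961 (interval from 0.835 to 1.11), which reaches from a 1.2-fold decrease to a 1.11-fold increase and includes a fold of 1. In RefSeq the span of Creb1 overlaps that of Mettl21a, and how the authors treated reads shared by overlapping genes was not given in the sources used here.

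Of the 8 early genes, 6 had a higher normalized count with the CDH12 siRNA and 2, Nr4a1 and Bdnf, a lower one. Over all genes with at least 20 reads, 49% were higher. The median log2 fold change of the 8 was 0.17, beside -0.003 over all 13317 genes. Together the 8 genes had 2989 and 3044 reads, a summed fold of 1.14 (interval from 1.09 to 1.20). Jun supplied 62.3% (NC siRNA) and 61.8% (CDH12 siRNA) of their normalized counts, a share that also depends on transcript length. Without Jun the summed fold was 1.16 (interval from 1.06 to 1.26), from 1127 and 1162 reads. That sum still holds Egr1, with 301 and 365 reads, so it does not show a rise shared by the other genes. A sum without both Jun and Egr1 was not computed. The intervals of these sums also cover counting error only, no spread between libraries was estimated for them, and 5 of the 8 genes (Fos, Junb, Arc, Nr4a1 and Dusp1) had intervals of their own that include a fold of 1.

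**Figure D2:**
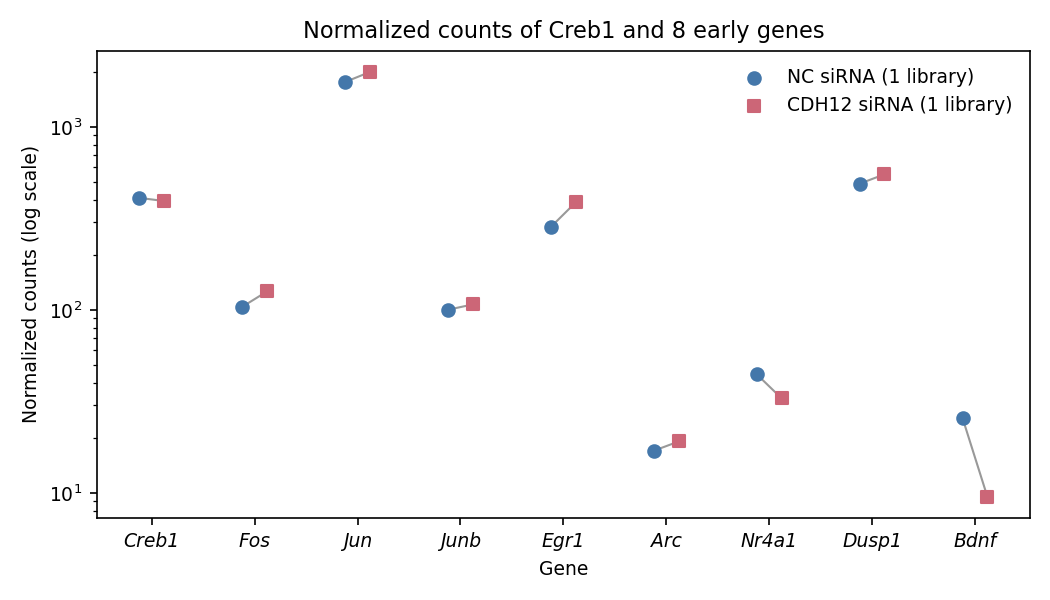
Normalized counts (log axis) of Creb1 and the 8 early genes in the NC siRNA library (circles) and the CDH12 siRNA library (squares), 1 library each, joined by a line. Counts are not per transcript length, so only points of the same gene compare. The line of Bdnf is the steepest, from 25.5 to 9.53, and that of Egr1 climbs from 284 to 387.

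Fos, Jun and Junb encode subunits of AP-1, the dimeric transcription factor assembled from Fos and Jun proteins. Jun (ENSRNOG00000026293) had 1862 and 1882 reads, or 1758 and 1993 normalized counts, in the NC and CDH12 siRNA libraries. It was 1.13-fold higher with the CDH12 siRNA (interval from 1.06 to 1.21), and its log2 fold change of 0.18 lay above the 95th percentile of 0.15 over 3172 genes of like depth, whose 5th percentile was -0.19. With 3744 reads in both libraries together, Jun had the narrowest interval of the 9.

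Fos (ENSRNOG00000008015), whose product dimerizes with Jun, had 110 and 119 reads, or 104 and 126 normalized counts. Its fold change of 1.21 had an interval from 0.929 to 1.59. Junb (ENSRNOG00000042838), which encodes a Jun relative, had 106 and 101 reads, or 100.1 and 107 normalized counts, with a fold change of 1.07 (interval from 0.806 to 1.42). Both intervals include a fold of 1. The 3 AP-1 genes together gave a fold of 1.14 (interval from 1.07 to 1.21), with Jun contributing 89.6% and 89.5% of their normalized counts.

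Egr1 (ENSRNOG00000019422), a zinc finger transcription factor widely used as a marker of neuronal activity, had the highest fold change of the 9. Its reads numbered 301 under the NC siRNA against 365 under the CDH12 siRNA, the shallower library of the pair. The normalized counts were 284 and 387, a fold change of 1.36 (interval from 1.17 to 1.59). Its log2 fold change of 0.44 lay above the 95th percentile of 0.27 over 4118 genes of like depth (5th percentile -0.32).

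Nr4a1 (ENSRNOG00000007607), an orphan nuclear receptor induced by calcium and cAMP signals, had the lower value with the CDH12 siRNA. It had 47 and 31 reads, or 44.4 and 32.8 normalized counts, and a fold change of 0.74 with an interval from 0.455 to 1.19. The interval spans a fold of 1, and a difference was not detectable at this depth.

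Among the effectors, Dusp1 (ENSRNOG00000003977) encodes a phosphatase that switches off MAP kinases. It had 518 and 519 reads, or 489 and 550 normalized counts, with a fold change of 1.12 (interval from 0.993 to 1.27). Its lower bound fell just under 1. Arc (ENSRNOG00000043465), which encodes a synaptic protein that regulates AMPA receptor endocytosis, had 18 reads in each library, or 17 and 19.1 normalized counts. The fold change was 1.12 with an interval from 0.551 to 2.29, which includes a fold of 1. In RefSeq its span overlaps that of a long noncoding RNA gene (LOC134479925).

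Bdnf (ENSRNOG00000047466), which encodes the secreted neurotrophin BDNF, was the gene with the largest difference of the 9. The NC siRNA library held 27 of its reads and the CDH12 siRNA library 9, which gives 25.5 and 9.53 normalized counts. It was 2.67-fold lower with the CDH12 siRNA, with an interval from 1.22 to 6.46. The log2 fold change of -1.42 lay under the 5th percentile of -1.11 over 1769 genes of like depth, where the 95th percentile was 1.28. Of 1633 other genes of like depth with at least 20 reads, 107, or 6.55%, were lower by more than 2-fold.

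**Figure D3:**
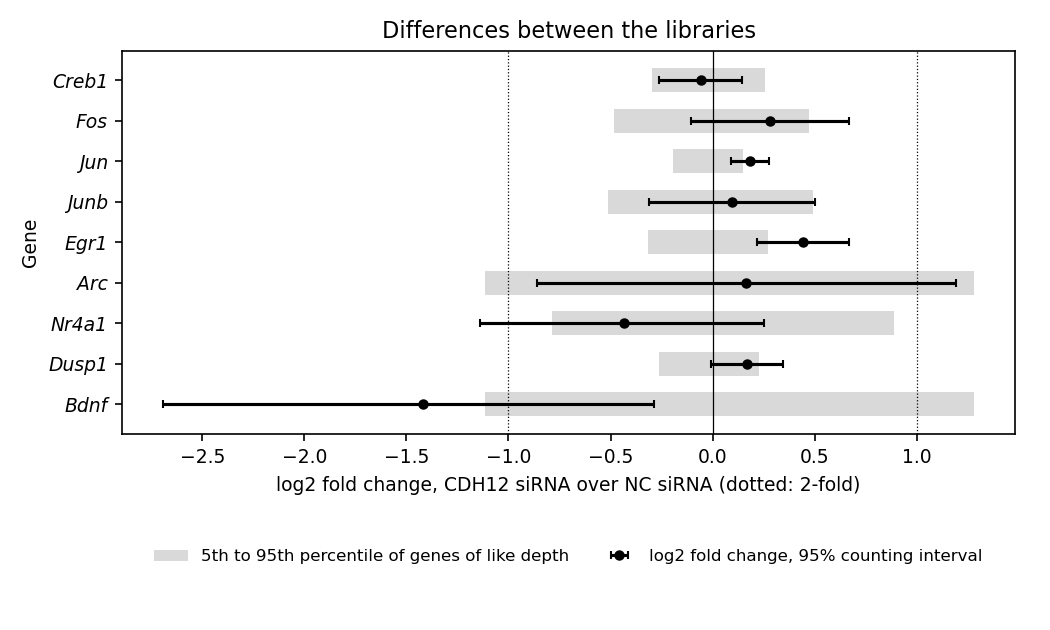
Points give the log2 fold change of each gene (CDH12 siRNA over NC siRNA, 1 library each), bars the exact 95% counting interval and grey bands the 5th to 95th percentile of genes of like depth. The points of Jun and Egr1 lie to the right of their bands and that of Bdnf, at -1.42, to the left, whereas the other 6 lie inside.

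The study's limit of a 2-fold change, applied here without a test, was passed by 1 of the 9 genes, Bdnf, which was lower. It was passed by 2.27% of all 13317 genes, 1.29% higher and 0.976% lower. Bdnf was also the 1 gene of the 9 past a fold of 1.5, beside 6.47% of all genes. The counting interval excluded a fold of 1 for 3 of the 9, Jun and Egr1 (higher) and Bdnf (lower), beside the 22.6% of all genes given above, 10.2% higher and 12.4% lower. These 3 also lay outside the 5th to 95th percentile of genes of like depth, as did 9.18% of all genes, 4.54% above and 4.64% below. In edgeR's exact test on the recovered reads, which compares these 2 libraries and not the treatments, 203 genes, or 1.21% of all 16756, had *P* below 0.05 and a fold above 2, and none of the 9 was among them. By *P* below 0.05 at any fold the test called 3.96% of all genes and 1 of the 9, Egr1. The dispersion of the test was estimated over both libraries as 1 group, so the difference between them is part of its spread. The share called therefore does not measure how many genes differ. Bdnf was past the limit by fold alone.

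**Figure D4:**
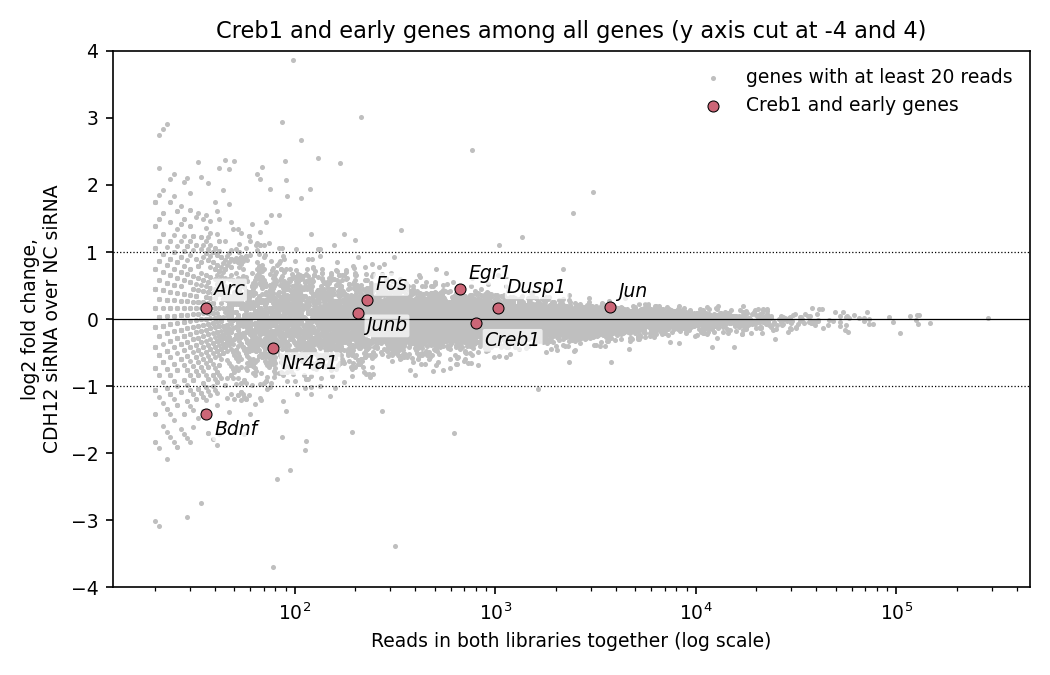
The log2 fold change (CDH12 siRNA over NC siRNA) of each gene with at least 20 reads is plotted against its reads in both libraries together (log axis), with Creb1 and the 8 early genes in red. The spread narrows with depth: Arc and Bdnf, both at 36 reads, lie where it is wide, and Jun, at 3744 reads, where it is narrow. The axis leaves out 2 genes past 4 in either direction.

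The early genes were also set against Creb1 inside each library, a ratio of reads that needs no scaling between libraries. For each read of Creb1 there were 0.695 reads of Egr1 under the NC siRNA against 0.984 under the CDH12 siRNA, a ratio 1.42 times as high (exact conditional interval from 1.15 to 1.75). For Jun the values were 4.3 and 5.07 reads, a ratio 1.18 times as high (interval from 1.01 to 1.38). Relative to Creb1, Bdnf went from 0.0624 to 0.0243 reads, or 0.389 times the NC siRNA value (interval from 0.159 to 0.867). For these 3 of the 8 early genes the interval excludes 1, as it does for 8.55% of the 13316 genes set against Creb1 in the same way, and like the others it covers counting error only. Fos (1.26, interval from 0.931 to 1.71), Junb (1.11, from 0.809 to 1.53), Dusp1 (1.17, from 0.968 to 1.41), Nr4a1 (0.77, from 0.463 to 1.27) and Arc (1.17, from 0.564 to 2.42) had intervals that include 1.

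All 6 genes with an upstream window held a CRE core at 1 or more of their starts, in 6 of 12 windows, beside 20% of all 27457 genes. Among the 6, fold changes could therefore not be compared between those with and without one. Reads of Bdnf were counted for the whole gene, so they do not show from which of its starts the transcripts came.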

How the data were processed

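Total RNA of cortical neurons was sequenced as 1 library per treatment (NC siRNA, CDH12 siRNA). The authors used HTSeq to count reads. The deposited signal, named baseMean, is each gene's count divided by the size factor of its library. The submitters' processing notes name cutadapt 1.15, HTSeq 0.9.1 and DESeq 1.30.0, whereas the paper's methods name another HTSeq release. The aligner, genome build and annotation are not given in the sources used here. Whole reads were recovered by taking a library's smallest non-zero value as 1 read (100% of values came out whole). Intervals cover counting error only.

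Log2 fold changes were taken from normalized counts without a pseudocount. Exact intervals were computed with scipy 1.17.1 (numpy 2.4.6, pandas 2.3.3) and figures were drawn with matplotlib 3.10.9. Counts over genes used at least 20 reads in both libraries together. edgeR 4.0.16 (R 4.3.3) provided TMM factors and an exact test, with a trended dispersion estimated over both libraries as 1 group. It was tested on simulated data. The planned comparison with no test was kept, since 1 library per treatment gives no replicate error.

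The 9 genes and the lists were chosen with earlier results of these data known. Every one of the 9 was to be named. Symbols came from the list of members, because 0 entries of the RefSeq table carry an Ensembl identifier. The pairing was not checked against a reference, and the other planned gene lists and markers were not analyzed here. No gene was named for a like pattern, because 2 libraries give 1 ratio per gene. Other scalings, pseudocounts, read minimums, folds and the exact test were tried as alternatives.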

Additional observations from a re-analysis of the deposited data

How the results depend on the processing

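Each of the 9 genes was recomputed with total recovered reads, with edgeR's TMM and with pseudocounts of 1 and 5. All 36 values stayed inside the gene's own counting interval. The other scalings shift every gene alike, by no more than 0.012 on the log2 scale, and a pseudocount cannot change a sign, so these values do not bear on stability against replicate error. A pseudocount of 5 moved Bdnf most, from -1.42 to -1.07. The median of the 8 early genes stayed inside the medians of their interval bounds under these 4 alternatives. Bdnf was the 1 gene of the 9 past 2-fold under each of them and also past a fold of 1.5, but 0 of the 9 were past *P* below 0.05 and 2-fold in edgeR's exact test.

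Of all genes, 302 were past 2-fold. This number was 141 with a pseudocount of 5, 2449 when 1 read sufficed, 33 when 100 reads were required and 861 at a fold of 1.5. The read minimums and the limit on the fold change only which genes are counted. A pseudocount pulls every ratio toward 1, most at low counts, so it can only lower the number. The other scalings (304 and 301) and a pseudocount of 1 (256) stayed within 1.5 times 302. The exact test, over all 16756 genes and with its own limit on *P*, gave 203, of which 116 had at least 20 reads. Arc and Bdnf, with 36 reads each, and Nr4a1, with 78, are limited most by depth. No paired analysis was possible because there is 1 library on each side, and for that reason no replicate could be left out.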
